A study of Mus musculus with 4 samples.

Results

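Bone marrow Lin-Sca-1+Kit+ (LSK) cells, the compartment that holds blood stem cells and the earliest progenitors, were compared between mice expressing a constitutively active form of the kinase IKK2 and their Cre-only controls. The Ikk2CA library came from mice of genotype Vav1-iCre/+, Ikk2-CA flox/+, and the control library from Vav1-iCre/+ mice that carried no other mutant allele. Both groups therefore carry the Vav1-iCre transgene, whose Vav1 regulatory elements drive recombinase throughout the blood lineages. The Ikk2-CA allele (R26StopFLikk2ca) sits in the Rosa26 locus behind a floxed stop and encodes IKK2 with the changes S177E and S181E. The breeding scheme also includes an NF-κB-responsive EGFP reporter line on an FVB background, and the genotype labels do not say which of the pools carried it. Each library pooled the marrow of 5 mice aged 8 to 12 weeks, was enriched for Kit+ cells on magnetic beads, sorted for LSK cells and run as droplet single-cell RNA-seq. The 2 libraries are part of a series of 4, which also holds Jak2V617F and double mutant LSK cells.

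Cells with 500 to 7500 detected genes and under 10% mitochondrial unique molecular identifiers (UMIs, the counted transcript molecules) were kept, and their UMIs were summed per gene and scaled to CPM, a gene's UMIs relative to all UMIs of the library. The comparison covers the 8377 of 32285 genes that reached 10 CPM in either library, in 9865 Ikk2CA and 8055 control cells, together 17920 of the 37344 kept cells of the series. With 1 pooled library on each side there is no replicate and no test. Every ratio below is Ikk2CA over control, and its 95% interval covers counting error only, not the difference between pools, animals or preparations.

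NF-κB transcription factors rest in the cytoplasm, bound by inhibitors of the IκB family. The kinase IKK2, encoded by Ikbkb, phosphorylates these inhibitors so that they are degraded, and the freed dimers enter the nucleus. Among the best known NF-κB target genes are its own inhibitors, which close a negative feedback loop. Others are the subunit genes Relb and Nfkb2, which carry the slower non-canonical branch. In blood the pathway is known for inflammatory signalling, survival of lymphocytes and, in stem cells, a balance between quiescence and activation.

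The Ikk2CA library was deeper. It kept 95.5% of its 10330 barcodes with a median of 17726 UMIs and 3895 genes a cell, against 81.0% of 9950 barcodes, 10606 UMIs and 3223 genes in control. The totals were 197836491 UMIs in Ikk2CA and 102362297 in control, and 17 kept barcodes occurred in both. Of cells with at least 5000 UMIs, 75.7% in Ikk2CA and 41.5% in control had no Xist UMI. Xist had 250 CPM in Ikk2CA and 1176 CPM in control. The Y-linked genes differed less: Ddx3y had 27.4 CPM in Ikk2CA and 24.9 CPM in control, Kdm5d 10.3 and 9.49 CPM, and Eif2s3y 40.4 and 29.1 CPM. Whether the pools differed in their mix of sexes or in Xist level was not tested. Clusters treated below as lineage clusters held 29.1% of Ikk2CA and 14.1% of control cells. They were the B, plasma, T or NK, plasmacytoid dendritic, neutrophil, mast cell and erythroid-like clusters and some unnamed ones. Among the unnamed was a cluster of shallow cells with 24 Ikk2CA and 431 control cells, so the set is not only committed cells. Granulocyte-monocyte and megakaryocyte progenitor-like clusters were not in it. Shares of cells with a UMI are therefore given after thinning each cell to 5000 UMIs, which left out 405 of 9865 Ikk2CA and 838 of 8055 control cells, with the share before thinning beside the main genes. Sums over a library cannot tell apart more cells of a type from more RNA per cell. Ratios were therefore also taken inside 12 cell classes, defined by clustering the control cells and giving each Ikk2CA cell the class most frequent among its 15 nearest control cells.

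The targeted kinase came first as a check of the labels. Ikbkb had 53.9 CPM in Ikk2CA and 58.4 CPM in control cells (ratio 0.923, 0.894 to 0.953), so its level does not tell the genotypes apart. Whether reads of the transgene are counted under Ikbkb is not given in the sources used here. The locus that holds the allele did differ. Gt(ROSA)26Sor, the noncoding transcript of Rosa26 (chr6:113067428-113077333 in the mm10 annotation, minus strand), had 12.2 CPM in Ikk2CA and 31.8 CPM in control cells (ratio 0.383, 0.363 to 0.404). It had a UMI in 6.04% of thinned Ikk2CA and 14.6% of thinned control cells (20.4% and 30.7% before thinning), and was lower in all 12 classes, with log2 ratios between -1.69 and -1.13. In the other libraries Gt(ROSA)26Sor had 14.2 CPM in the double mutant, which carries the same allele, and 27.6 CPM in Jak2V617F, which does not. The neighbours stood near the median gene: Thumpd3 had 36.0 CPM in Ikk2CA and 42.4 CPM in control, and Setd5 had 57.9 CPM in Ikk2CA and 71.3 CPM in control. Thumpd3 and Gt(ROSA)26Sor overlap on opposite strands, and whether the counting used strand is not given in the sources used here.

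**Figure D1:**
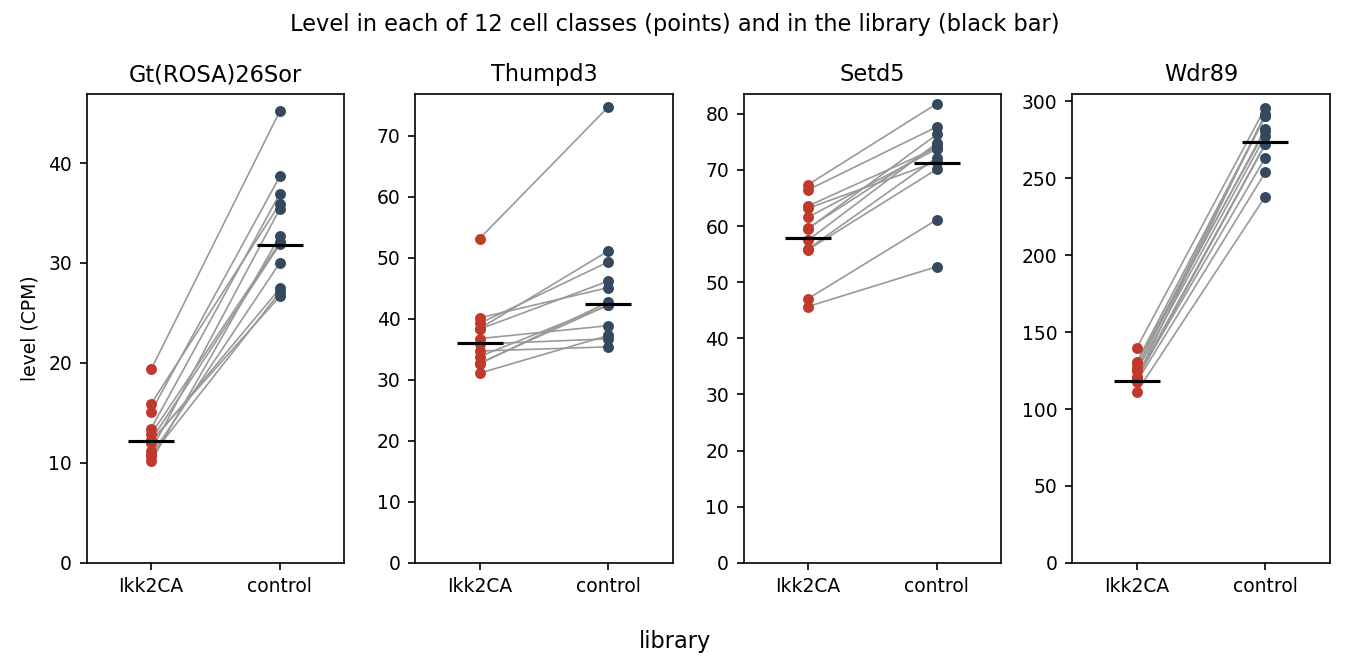
Level (CPM) of Gt(ROSA)26Sor, its neighbours Thumpd3 and Setd5, and Wdr89 in Ikk2CA (left) and control (right); points are the 12 cell classes, joined by class, and black bars the library sums. Every line of Gt(ROSA)26Sor and Wdr89 is higher at control, and the library bars of Gt(ROSA)26Sor lie at 12.2 CPM in Ikk2CA and 31.8 CPM in control.

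Across all genes compared, 179 (2.14%) were at least 2-fold higher in Ikk2CA and 282 (3.37%) were at most 0.5-fold of control. The median gene stood at a log2 ratio of -0.23, so that 2223 genes (26.5%) lay above 0, and higher genes made up 38.8% of those past 2-fold. Scaling by trimmed mean (TMM) factors put the median gene at 0.01 and the split at 248 higher and 123 lower genes, or 66.8% higher. Direction was also counted across cell classes: 544 genes (6.49%) were above 0 in all 12 classes and 2175 (26.0%) were below 0 in all 12. The median gene of every class lay below 0, from -0.26 to -0.12, which favours the count below 0. The classes are parts of the same 2 libraries and do not replicate one another. Of the 179 higher genes 106 were above 0 in every class, and of the 282 lower genes 183 were below 0 in every class. In the stem cell-like class, 127 of 8576 genes (1.48%) were at least 2-fold higher and 138 (1.61%) at most 0.5-fold.

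**Figure D2:**
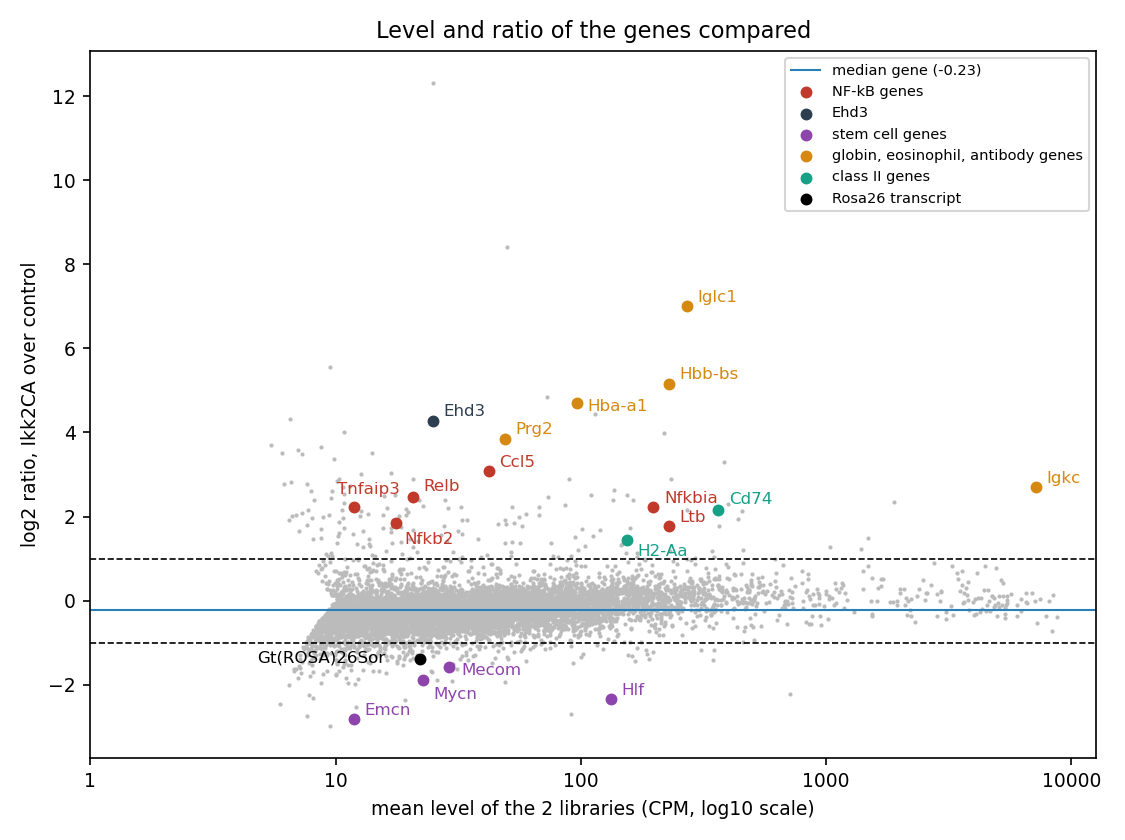
Each point is a gene: its mean level over the Ikk2CA and control libraries (CPM, log axis) against the log2 ratio of Ikk2CA over control. The blue line is the median gene at -0.23 and the dashed lines mark 2-fold; the coloured NF-κB and class II genes lie above the upper line and the stem cell genes below the lower one.

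The feedback inhibitors of NF-κB were higher. Of 16 genes compared in this list, 10 lay above 0, and the same number were above 0 in all 12 classes; 4 were at least 2-fold higher and none was at most 0.5-fold. The list's median was 0.68 on the log2 scale, against -0.23 for all genes compared, and 0.60 in the stem cell-like class. It turned to -0.25 when only genes with 50 CPM or more were kept, which leaves 3 of the list. Nfkbia, which encodes IκBα, the inhibitor that IKK2 acts on, had 325.3 CPM in Ikk2CA and 69.9 CPM in control cells (ratio 4.65, 4.54 to 4.77). A UMI of Nfkbia was found in 76.0% of thinned Ikk2CA and 28.4% of thinned control cells (94.6% and 49.0% before thinning). The lowest class share of Nfkbia in Ikk2CA, 51.7%, exceeded the highest in control, 34.8%, and the class log2 ratios ran from 1.36 to 3.03. Tnfaip3, which encodes the ubiquitin-editing enzyme A20 and has few UMIs a cell, was detected in 9.77% of Ikk2CA and 2.31% of control cells (28.4% and 4.95% before thinning). Its ratio was 4.69, 4.24 to 5.20.

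Smaller differences in the same direction covered the rest of the IκB family. Nfkbid had 14.6 CPM in Ikk2CA and 5.67 CPM in control, Nfkbiz 22.2 CPM in Ikk2CA and 9.82 CPM in control, and Nfkbie 25.9 CPM in Ikk2CA and 13.1 CPM in control. Nfkbib had 34.9 CPM in Ikk2CA and 20.02 CPM in control, Bcl3, an IκB-like coactivator, 10.3 CPM in Ikk2CA and 6.28 CPM in control, and Zc3h12a, the RNase Regnase-1, 16.3 CPM in Ikk2CA and 8.35 CPM in control. The members below 0 were Cyld, Otulin, N4bp1, Tax1bp1, Itch and Rnf11, which encode deubiquitinases, ubiquitin-binding regulators and partners of A20. Summed over the list, the median thinned cell held 5 UMIs in Ikk2CA and 3 in control, and in stem cell-like cells 6 in Ikk2CA and 4 in control. In that class 73.0% of Ikk2CA cells and 38.8% of control cells lay above the control median.

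The subunits and kinases of the pathway were divided. Relb and Nfkb2, the subunits of the non-canonical dimer, were the 2 of 18 genes past 2-fold, none was at most 0.5-fold, and the list's median was -0.18, within 0.06 of the median gene; it lay between -0.19 and 0.09 over the alternative settings. Relb was detected in 16.5% of thinned Ikk2CA and 3.53% of thinned control cells (ratio of levels 5.52, 5.09 to 6.00). Nfkb2 had 27.5 CPM in Ikk2CA and 7.64 CPM in control cells (ratio 3.60, 3.34 to 3.89). The subunits of the canonical dimers stood close to control: Rela had 31.9 CPM in Ikk2CA and 38.8 CPM in control, Rel 32.3 CPM in Ikk2CA and 30.9 CPM in control, and Nfkb1 86.5 CPM in Ikk2CA and 97.7 CPM in control. Ikbkg, the scaffold of the kinase complex, had 9.59 CPM in Ikk2CA and 13.5 CPM in control. Map3k14, the kinase that starts the non-canonical branch, had 7.67 CPM in Ikk2CA and 13.3 CPM in control.

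Among secreted targets few genes reached 10 CPM. Of 28 chemokines and cytokines in the list, 6 were compared, 3 were at least 2-fold higher and 1 was at most 0.5-fold. Ccl5, a chemokine for T cells and monocytes, was detected in 14.8% of thinned Ikk2CA and 1.32% of thinned control cells (30.6% and 2.51% before thinning), with a ratio of levels of 8.41 (7.87 to 9.0). Its UMIs were spread more widely in Ikk2CA, where the top 1% of cells held 49.0% of them, against 86.9% in control. In the erythroid progenitor-like class Ccl5 was near absent, with 11 UMIs in Ikk2CA and 2 UMIs in control before thinning (log2 ratio 2.05) and a single thinned cell in each library, or 0.901% of Ikk2CA and 0.990% of control cells. The median depths of that class were 36701 UMIs in Ikk2CA and 27444 UMIs in control. Ccl4 differed more in molecules than in cells: it was found in 23.5% of Ikk2CA and 19.3% of control cells, with 3.12 and 1.41 UMIs per positive cell in Ikk2CA and control. Ccl3 was found in 13.4% of Ikk2CA and 14.2% of control cells. The cytokine Il15 went the other way, at 10.4 CPM in Ikk2CA and 26.0 CPM in control, and the chemokine Ccl9 had 51.1 CPM in Ikk2CA and 78.2 CPM in control. Below the 10 CPM limit, Tnf had 4.94 CPM in Ikk2CA and 1.78 CPM in control, and Cxcl2 5.10 CPM in Ikk2CA and 0.303 CPM in control.

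Surface and survival targets of NF-κB were mixed, with 11 of 22 above 0, 5 at least 2-fold higher, none at most 0.5-fold and a median of -0.03, which lay between -0.22 and 0.24 over the alternative settings. Ltb, which encodes lymphotoxin β, a membrane ligand of the TNF family, had 354.7 CPM in Ikk2CA and 104.1 CPM in control cells (ratio 3.41, 3.34 to 3.48). It was detected in 68.3% of thinned Ikk2CA and 36.5% of thinned control cells (87.1% and 50.2% before thinning). Every class gave a larger log2 ratio for Ltb, 1.89 to 3.60, than the whole library did, 1.77. The share of cells with Ltb was lowest in the erythroid progenitor-like class of both libraries, at 10.8% in Ikk2CA and 1.98% in control. Cd69, an early activation receptor, was found in 42.0% of Ikk2CA and 15.6% of control cells, and Pdcd1lg2, which encodes the checkpoint ligand PD-L2, in 9.61% of Ikk2CA and 2.69% of control cells. Ier3, an early response gene of cell survival, had 103.5 CPM in Ikk2CA and 49.9 CPM in control. Sdc4, a surface proteoglycan, had 26.8 CPM in Ikk2CA and 13.3 CPM in control, but 135.5 CPM in Ikk2CA and 160.5 CPM in control within B cell-like cells, and its log2 ratio of 1.01 was 0.08 with lineage clusters left out. The receptor gene Tnfrsf1a was lower, at 29.2 CPM in Ikk2CA and 53.1 CPM in control.

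Among genes with 20 CPM or more, antigen receptor, globin and Gm-numbered genes aside, the highest ratio belonged to a gene in none of the NF-κB lists. Ehd3, an ATPase of endosomal membrane traffic, had 47.6 CPM in Ikk2CA and 2.44 CPM in control cells (ratio 19.5, 17.2 to 22.2). It had a UMI in 19.8% of thinned Ikk2CA and 1.22% of thinned control cells (48.8% and 2.25% before thinning). Its class shares ran from 11.8% to 36.2% in Ikk2CA and reached at most 8.08% in control, so the classes of the libraries did not overlap. The double mutant library had 24.5 CPM of Ehd3 and the Jak2V617F library 2.89 CPM.

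**Figure D3:**
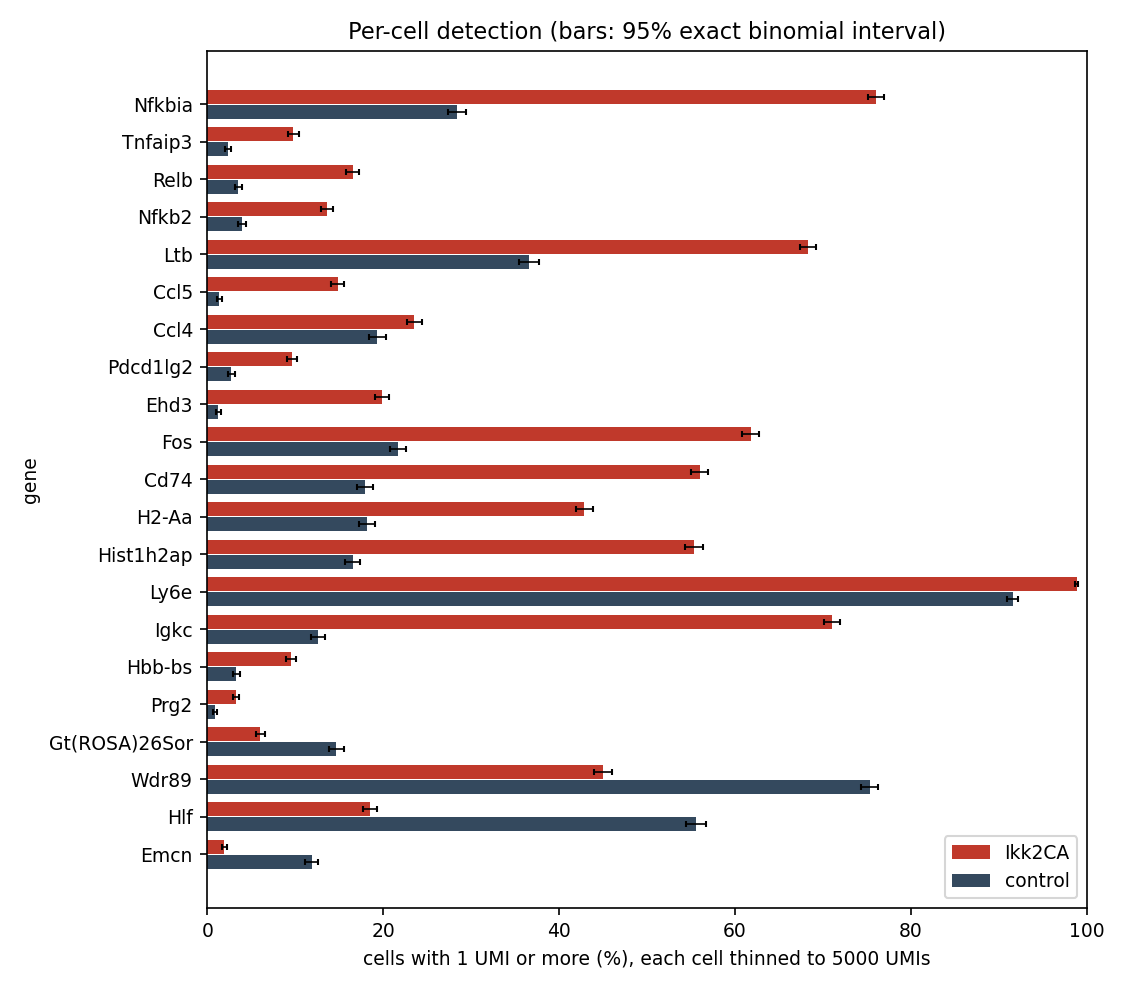
Share of cells with at least 1 UMI of each named gene after thinning to 5000 UMIs (percent of cells); the upper bar of each pair is Ikk2CA, the lower control, with exact 95% binomial intervals. Nfkbia lies at 76.0% in Ikk2CA and 28.4% in control, and Hlf lies at 18.5% in Ikk2CA and 55.5% in control.

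Several promoters of the higher NF-κB genes hold the letters that NF-κB dimers are known to bind. RefSeq windows (GRCm38.p6) from 250 bases before to 50 after each start were searched on both strands, overlaps included, for the κB consensus. The 150 bases before the start are shown in lower case for the NF-κB list members past 2-fold that have a match there, 5′ to 3′ on the gene's strand, with each match in capitals. Nfkbia lies at chr12:55492648-55492797 (minus strand), Tnfaip3 at chr10:19015411-19015560 (minus), Nfkb2 at chr19:46304587-46304736 (plus), Ltb at chr17:35194357-35194506 (plus), Ier3 at chr17:35821563-35821712 (plus) and Sdc4 at chr2:164443189-164443338 (minus).
Nfkbia: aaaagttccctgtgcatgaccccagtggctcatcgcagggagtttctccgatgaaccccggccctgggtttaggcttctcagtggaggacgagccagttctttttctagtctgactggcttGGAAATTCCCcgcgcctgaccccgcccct
Tnfaip3: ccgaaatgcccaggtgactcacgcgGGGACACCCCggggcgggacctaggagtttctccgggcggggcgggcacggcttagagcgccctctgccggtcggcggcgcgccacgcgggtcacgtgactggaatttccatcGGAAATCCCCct
Nfkb2: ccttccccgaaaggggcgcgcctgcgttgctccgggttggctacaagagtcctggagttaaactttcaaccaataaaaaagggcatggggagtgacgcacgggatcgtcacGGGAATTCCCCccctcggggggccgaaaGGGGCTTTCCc
Ltb: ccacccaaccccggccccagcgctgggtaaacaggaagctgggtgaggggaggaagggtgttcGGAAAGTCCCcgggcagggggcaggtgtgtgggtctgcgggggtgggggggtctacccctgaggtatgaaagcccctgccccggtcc
Ier3: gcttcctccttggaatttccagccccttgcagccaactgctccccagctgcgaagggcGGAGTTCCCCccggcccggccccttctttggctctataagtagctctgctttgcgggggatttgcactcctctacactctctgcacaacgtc
Sdc4: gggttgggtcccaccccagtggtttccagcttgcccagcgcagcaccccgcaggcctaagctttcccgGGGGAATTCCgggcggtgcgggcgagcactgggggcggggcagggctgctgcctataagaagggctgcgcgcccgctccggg
The stretch of Nfkb2 holds 3 matches, of which 2 overlap, and that of Tnfaip3 holds 2, while Nfkbia, Ltb, Ier3 and Sdc4 each have a single match in the stretch shown. Nfkbid and Pdcd1lg2 have a match elsewhere in their windows, and Ehd3 has none in its window.

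Of 32851 promoter windows, 1480 (4.51%) held at least 1 match, counted by window. Counted by gene, 403 of the 6730 compared genes with a window (5.99%) held one. Among genes at least 2-fold higher in Ikk2CA, 16 of 99 with a window (16.2%) held a match, against 9 of 222 (4.05%) among those at most 0.5-fold. A window was at hand for only 99 of the 179 higher genes, against 6730 of all 8377 genes compared. Where the higher genes were also above 0 in all 12 classes, 14 of 57 (24.6%) held one. The NF-κB lists consist of known targets, and their share is no independent finding: all 8 of their members past 2-fold with a window held a match, as did 15 of their other 41 (36.6%). Other members past 2-fold, among them Relb, Nfkbiz and Ccl5, had no window and were not searched. Higher genes outside those lists held a match in 8 of 91 (8.79%). In the counts by gene, a gene with several starts has several windows and counts once. A match is a description of the letters only.

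Immediate early genes, which cells switch on within minutes of a stimulus, were higher as a group. Of 30 compared, 25 lay above 0, 14 were at least 2-fold higher and none was at most 0.5-fold, with a median of 0.90 in the library sums and 1.20 in stem cell-like cells. Fos, a subunit of the AP-1 factor, was detected in 61.8% of thinned Ikk2CA and 21.7% of thinned control cells (81.3% and 35.4% before thinning). Nr4a1, an orphan nuclear receptor, was found in 12.7% of Ikk2CA and 1.01% of control cells. Dusp1, a phosphatase that switches off MAP kinases, was found in 35.0% of Ikk2CA and 12.8% of control cells, and Klf2, a factor of quiescence and homing, in 17.2% of Ikk2CA and 4.84% of control cells. Summed over the list, the median stem cell-like cell held 34 UMIs in Ikk2CA and 15 in control after thinning, and 90.7% of Ikk2CA cells in that class lay above the control median. The other library with the allele did not share the level of Fos: Fos had 411 CPM in Ikk2CA and 55.7 CPM in control, while the double mutant stood at 56.4 CPM and Jak2V617F at 176 CPM. The other genes named here also stood near control in the double mutant. Nr4a1 had 1.6 CPM there and 2.3 CPM in control, Dusp1 28.9 and 26.6 CPM, and Klf2 8.6 and 10.3 CPM. In Jak2V617F, Nr4a1 had 11.6 CPM, Dusp1 48.0 CPM and Klf2 24.4 CPM. Nfkbia had 252 CPM in the double mutant and 87.4 CPM in Jak2V617F. Some other feedback inhibitors lay nearer control in the double mutant. Nfkbiz had 10.13 CPM there and 9.82 CPM in control, Nfkbid 6.35 and 5.67 CPM, Zc3h12a 9.42 and 8.35 CPM, and Tnfaip3 7.07 and 4.16 CPM. Nfkbie, at 19.96 CPM in the double mutant, lay between control (13.05 CPM) and Ikk2CA (25.88 CPM). Relb had 28.94 CPM in the double mutant and 6.31 CPM in control, but Ccl4 had 15.54 CPM and 42.03 CPM. Immediate early genes also respond to the handling of cells. The heat shock and dissociation list had a median of 0.33, with 13 of 19 above 0 and none at least 2-fold higher, and the part of handling in the result was not tested.

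Genes of MHC class II presentation, through which cells show peptides to helper T cells, were higher, and those of class I stood nearer the median gene. Of 9 class II genes, 6 were above 0 in the library sums and in all 12 classes, 4 were at least 2-fold higher and 1 was at most 0.5-fold, with a median of 0.97. That median was 0.50 with lineage clusters left out and 1.31 with genes of 50 CPM or more, the ends of its range over the alternative settings. By class it ran from 0.40 in lymphoid progenitor-like to 1.98 in erythroid progenitor-like cells, and was 0.41 in stem cell-like cells. Summed over the list, thinned erythroid progenitor-like cells held a mean of 2.07 UMIs in Ikk2CA and 0.485 in control. Stem cell-like cells held a mean of 10.2 UMIs in Ikk2CA and 3.73 in control. How far RNA from other cells enters these class values was not tested. Cd74, the invariant chain, had 593 CPM in Ikk2CA and 133 CPM in control cells (ratio 4.46, 4.38 to 4.54). It was detected in 56.0% of thinned Ikk2CA and 17.9% of thinned control cells (73.4% and 26.4% before thinning), with class log2 ratios from 2.69 to 4.89. The share of cells with Cd74 was lowest in the erythroid progenitor-like class, at 20.7% in Ikk2CA. H2-Aa, an α chain, was found in 42.9% of Ikk2CA and 18.2% of control cells, and the β chains H2-Eb1 in 37.5% of Ikk2CA and 13.2% of control cells and H2-Ab1 in 54.8% of Ikk2CA and 31.2% of control cells. The 22 class I genes had a median of 0.03 (-0.05 to 0.30 over the alternative settings), with 12 above 0, 17 above the median gene and none past 2-fold either way.

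The Ly6 family of small surface proteins had all 5 compared genes above 0 and 4 past 2-fold. Ly6e was near universal, found in 98.9% of thinned Ikk2CA and 91.6% of thinned control cells, and differed in molecules per positive cell, 7.44 in Ikk2CA and 3.27 in control. Ly6a encodes Sca-1, by which the cells were sorted, and its share of 54.2% in Ikk2CA and 37.5% in control is therefore no finding about the compartment. The same holds for Kit, found in 35.1% of Ikk2CA and 51.9% of control cells. Near-identical copies exist in the family, and how reads were split between them is not given in the sources used here.

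Histone genes, transcribed in S phase, were higher, and cell cycle genes differed less. Of 26 compared, 24 lay above 0, 17 were at least 2-fold higher and 1 was at most 0.5-fold, with a median of 1.63 in the library sums and 0.81 in stem cell-like cells. Hist1h2ap had 693 CPM in Ikk2CA and 70.4 CPM in control cells (ratio 9.85, 9.62 to 10.1) and was found in 55.4% of thinned Ikk2CA and 16.5% of thinned control cells. Hist1h1b, a linker histone, had 566 CPM in Ikk2CA and 166 CPM in control, and Hist1h4d 236.0 CPM in Ikk2CA and 38.0 CPM in control. The 2 below 0 were Hist1h2ac, at 45.3 CPM in Ikk2CA and 92.5 CPM in control, and Hist1h3d, at 11.4 CPM in Ikk2CA and 16.7 CPM in control. In the other libraries the order differed by gene. Hist1h2ap had 157.0 CPM in the double mutant and 264.6 CPM in Jak2V617F, and Hist1h4d 219.5 CPM in the double mutant and 77.8 CPM in Jak2V617F. Many histone genes have near-identical copies, so values of single members are uncertain. Beside the histone genes, 28 S phase genes had a median of 0.03 and 30 G2 and M phase genes a median of 0.08, with none past 2-fold in either list. Above the median gene lay 27 of the 28 and all 30. Over the alternative settings these list medians ran from -0.11 to 0.30 and from -0.21 to 0.37. The control cluster led by Hist1h1b and Pclaf took 851 Ikk2CA and 413 control cells. That led by Ung and Uhrf1 took 610 Ikk2CA and 653 control cells. In stem cell-like cells the G2 and M phase median was -0.32.

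Stem cell genes were lower. Of 23 compared, 15 were at most 0.5-fold and 1 at least 2-fold, and the median was -1.17, against -0.52 inside the stem cell-like class and -0.76 when all classes were weighted as in control. Hlf, a transcription factor of long-term stem cells, was detected in 18.5% of thinned Ikk2CA and 55.5% of thinned control cells (34.6% and 68.0% before thinning). Within stem cell-like cells Hlf had 202 CPM in Ikk2CA and 506 CPM in control, and it was detected in 55.6% of them in Ikk2CA and 84.3% in control at median depths of 11580 UMIs in Ikk2CA and 8577 UMIs in control. B cell-like cells, which should lack it, showed Hlf in 2.67% in Ikk2CA and 10.5% in control, at median depths of 14228 UMIs in Ikk2CA and 10835 UMIs in control. Mecom, another stem cell factor, was found in 8.32% of Ikk2CA and 21.0% of control cells, and the endothelial and stem cell sialomucin Emcn in 1.90% of Ikk2CA and 11.9% of control cells. The progenitor antigen Cd34 was found in 51.0% of Ikk2CA and 81.6% of control cells. Summed over the list, the median stem cell-like cell held 12 UMIs in Ikk2CA and 18 in control. The class assignment used these same genes, and the class joined 2 control clusters that took 931 and 477 Ikk2CA and 1013 and 1002 control cells, so its makeup and the levels inside it are not independent. Among receptors, Cxcr4, which holds cells in the marrow, was found in 11.9% of Ikk2CA and 23.2% of control cells and Il2rg, the common γ chain, in 35.6% of Ikk2CA and 15.5% of control cells.

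**Figure D4:**
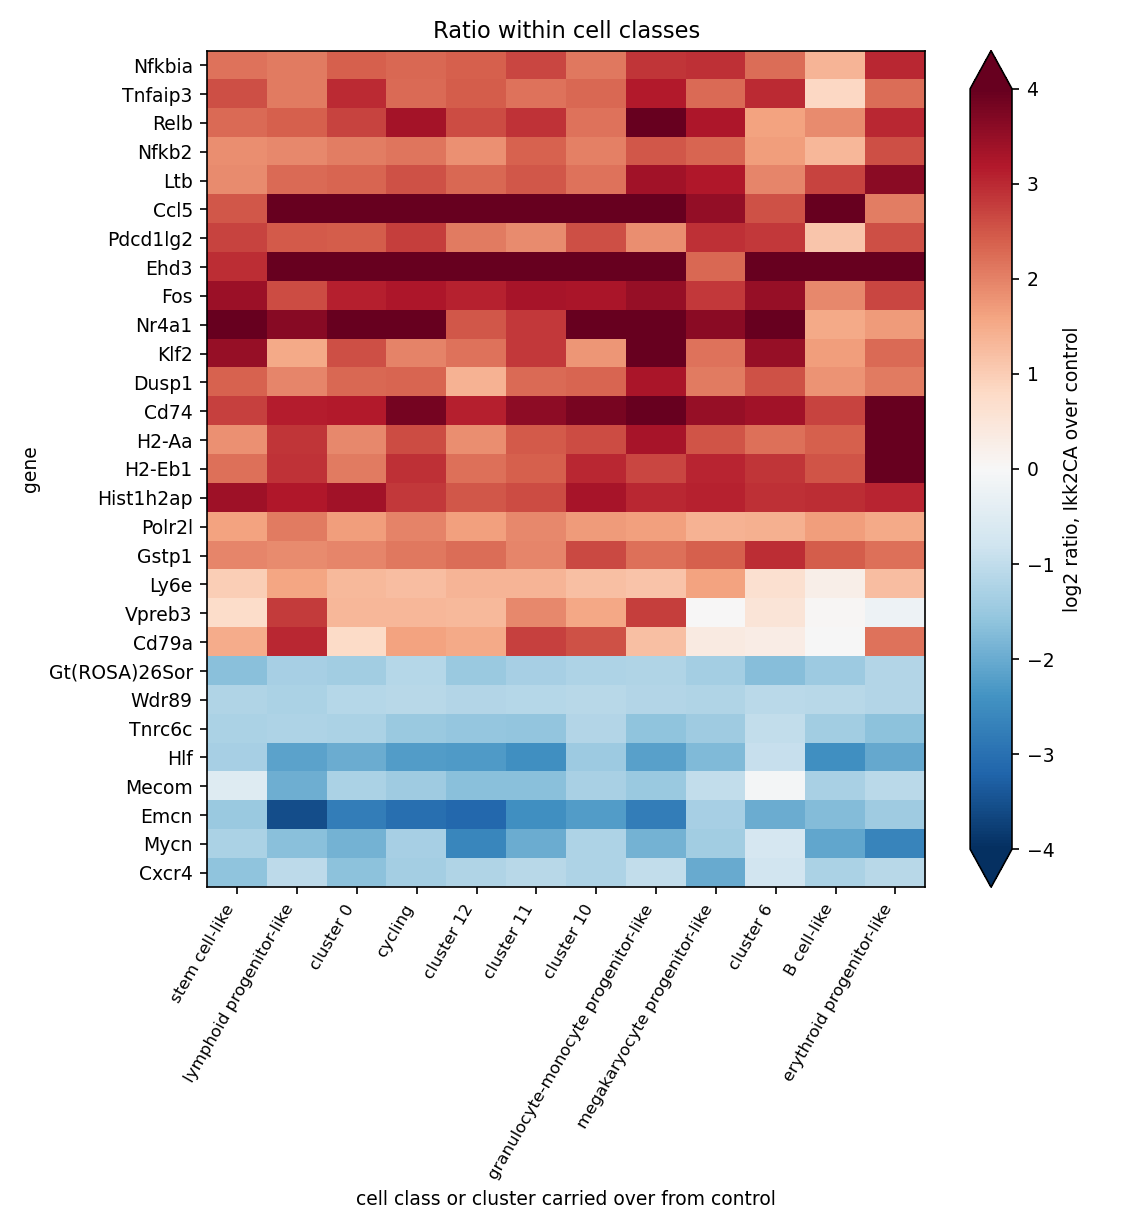
Log2 ratio of Ikk2CA over control for named genes (rows) in each of the 12 cell classes (columns), red above 0 and blue below; the colour scale stops at 4 either way. Nfkbia, Ltb, Ehd3 and Cd74 are above 0 in every class, Gt(ROSA)26Sor and Wdr89 are below 0 in every class.

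Cells of other lineages passed the LSK sort in both libraries, and those of the B, plasma and T or NK cell-like classes were more frequent in Ikk2CA. In a joint clustering, B cell-like cells made up 14.5% of Ikk2CA (1428 cells) and 1.88% of control cells (151 cells), a ratio of 7.72 (6.53 to 9.19). Plasma cell-like cells made up 2.09% of Ikk2CA (206 cells) and 0.248% of control (20 cells), and T or NK cell-like cells 1.19% of Ikk2CA (117 cells) and 0.335% of control (27 cells). Assigning Ikk2CA cells to classes from control alone gave 14.6% and 2.06% for B cell-like cells in Ikk2CA and control. A plasmacytoid dendritic-like cluster held 692 Ikk2CA and 6 control cells, and a cluster made almost entirely of 1 library may be that library and not a type. An unnamed cluster led by C1qa, C1qb, Vcam1 and Hmox1 went the other way, with 13 Ikk2CA and 252 control cells. Granulocyte-monocyte progenitor-like cells made up 7.17% of Ikk2CA and 4.49% of control cells, and neutrophil-like cells 0.294% of Ikk2CA and 0.335% of control cells. The share ratio of megakaryocyte progenitor-like cells was above 1 in every clustering, but its size ran from 1.43 to 12.0, and that of erythroid progenitor-like cells changed direction. The remaining progenitors separated by library in the joint clustering. Assigned from control, stem cell-like cells made up 14.3% of Ikk2CA and 25.02% of control cells, lymphoid progenitor-like cells 12.9% of Ikk2CA and 12.7% of control cells, and cycling cells 11.3% of Ikk2CA and 9.89% of control cells. The genes that define these classes differ between the libraries, so the shares are given as values only.

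**Figure D5:**
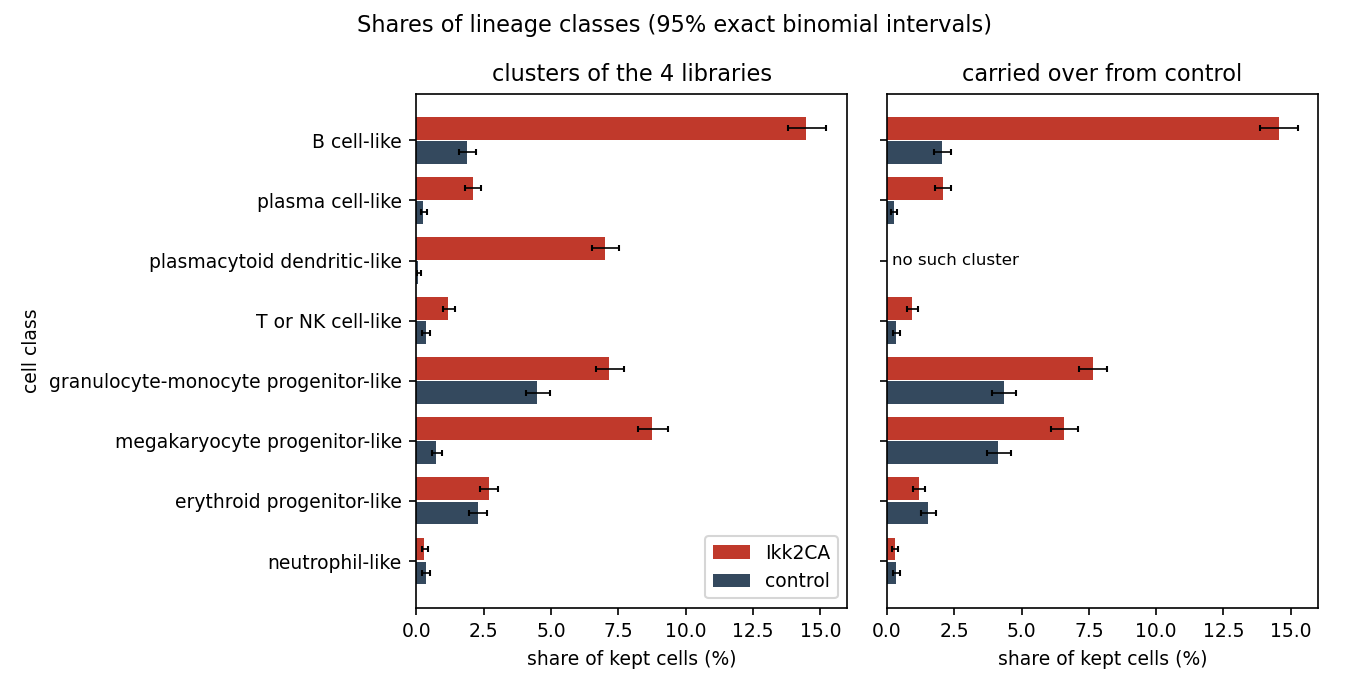
Share of kept cells (percent) in each lineage class, with Ikk2CA as the upper and control as the lower bar and exact 95% binomial intervals; left, clusters of all 4 libraries, right, classes carried over from control. In the joint clusters B cell-like cells lie at 14.5% in Ikk2CA and 1.88% in control, and neutrophil-like cells lie at 0.294% in Ikk2CA and 0.335% in control with overlapping intervals.

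The lineage genes moved with these shares. Of 15 B cell genes, 14 were at least 2-fold higher in the library sums, with a median of 2.39, but none kept 1 sign in all 12 classes, and the median was 0.02 with the lineage clusters left out. Vpreb3, a surrogate light chain partner, had 2148 CPM in Ikk2CA and 2091 CPM in control within B cell-like cells and was detected in 99.1% of them in Ikk2CA and 99.2% in control. Cd79a, a signalling chain of the B cell receptor, had 1399 CPM in Ikk2CA and 1406 CPM in control within B cell-like cells. Lymphoid progenitor-like cells had 25.8 CPM of Vpreb3 in Ikk2CA and 3.69 CPM in control, a ratio of 6.997. Granulocyte-monocyte progenitor-like cells, which should lack Vpreb3, had 8.97 CPM in Ikk2CA and 1.31 CPM in control, a ratio of 6.86, so no difference is read from the lymphoid class. The antibody light chain gene Igkc was present far outside plasma cells, in 71.1% of thinned Ikk2CA and 12.5% of thinned control cells (95.5% and 27.0% before thinning). Its class shares ran from 55.9% to 82.9% in Ikk2CA and from 4.95% to 18.4% in control, and megakaryocyte progenitor-like cells, which should lack it, showed 61.0% in Ikk2CA and 11.2% in control at median depths of 16033 UMIs in Ikk2CA and 12828 UMIs in control. Shares at the level of a class that should lack the gene are read as background. The library log2 ratio of Igkc, 2.70, was 0.18 when classes were weighted as in control.

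Globin and granule genes were concentrated in few cells. Hbb-bs, an adult β globin gene, had a ratio of 35.8 (33.9 to 37.9), yet the top 1% of Ikk2CA cells held 96.2% of its UMIs, against 66.0% in control. Without the cells of highest doublet score the log2 ratio of Hbb-bs was 1.14, against 5.16 in the library sums. Its near-identical copy Hbb-bt was found in 7.56% of Ikk2CA and 11.0% of control cells, and its log2 ratio changed sign, with 1.52 in the library sums and -0.82 without the cells of highest doublet score. Prg2, an eosinophil granule protein, was found in 3.20% of Ikk2CA and 0.817% of control cells. Pf4, a platelet chemokine, was found in 29.3% of Ikk2CA and 10.0% of control cells, and in 87.3% of Ikk2CA and 42.6% of control cells of the megakaryocyte progenitor-like class.

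Interferon-stimulated genes were lower in the sums, with 4 of 30 above 0, none at least 2-fold higher, 7 at most 0.5-fold and a median of -0.63. Inside the stem cell-like class their median was -0.22, near that class's median gene of -0.16. MYC and ribosome biogenesis genes stood at 0.04 with none of 32 past 2-fold, and BCL2 family genes, the regulators of apoptosis, at 0.17 with none of 10 past 2-fold. Glycolysis genes had a median of -0.36, with 6 of 20 above 0.

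Part of the naming rule asks for 1 direction in every cell class, so that direction is no finding about the following genes. The span of their class log2 ratios was 0.194 for Wdr89, 0.525 for Rpgrip1, 0.664 for Polr2l and 0.666 for Tnrc6c. It was wider for Rnaset2b, at 0.929, and for Gstp1, at 1.06. Wdr89, a WD-repeat gene, had 118.1 CPM in Ikk2CA and 273.8 CPM in control cells (ratio 0.431), with class log2 ratios confined to -1.28 to -1.09 and a UMI in 45.0% of thinned Ikk2CA and 75.3% of thinned control cells. The double mutant had 194.3 CPM of Wdr89 and the Jak2V617F library 146.2 CPM, so its order over the libraries was not that of the Ikk2-CA allele. Tnrc6c, a microRNA silencing factor, had 32.0 CPM in Ikk2CA and 87.3 CPM in control, Rpgrip1 36.5 CPM in Ikk2CA and 79.8 CPM in control, and Rnaset2b, an RNase with a close copy in the genome, 56.3 CPM in Ikk2CA and 143.5 CPM in control. Higher in every class were Polr2l, a shared subunit of the RNA polymerases, at 76.8 CPM in Ikk2CA and 21.9 CPM in control (class log2 ratios 1.40 to 2.06), and Gstp1, a glutathione transferase, at 26.7 CPM in Ikk2CA and 5.82 CPM in control (1.88 to 2.94). The double mutant had 44.8 CPM of Polr2l and 7.07 CPM of Gstp1, and the Jak2V617F library 39.4 CPM of Polr2l and 12.9 CPM of Gstp1. Rpgrip1 and Wdr89 are also among the leading genes of an unnamed joint cluster of shallow cells, whose median depth was 0.126 of that of their samples and which held 24 Ikk2CA and 431 control cells. Its part in the library sums was not tested by itself, as it was left out only together with the lineage clusters. The control cluster led by Rpgrip1 at like depth is none of the 12 classes. The genetic background and sex of the mice in each pool cannot be told apart from the allele with 1 library a side.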

How the data were processed

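Droplet single-cell RNA-seq was analysed from UMI count matrices, the raw whole-number counts per gene and cell that the authors deposited. They were made with Cell Ranger, as version 4.0.0 per the file headers and 3.0.1 per the series' design text, on mm10; Seurat 4.0.0 is named in the submitters' processing notes. Barcodes with 500 to 7500 genes and under 10% mitochondrial UMIs were kept, and counts were summed per gene and scaled to CPM. Genes with 10 CPM or more in either library were compared. Ratios carry exact conditional binomial intervals and shares exact Clopper-Pearson intervals (95%); both cover counting error only.

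Cells of the 4 libraries were clustered together with scanpy 1.11.5 (10000 UMIs per cell, log, 2000 variable genes, 30 components, 15 neighbours, Leiden resolution 1). Clusters were named from marker lists, with at least 3 markers. Since most progenitors separated by library, ratios within classes used clusters of control cells alone, with at least 100 cells in both libraries; stem cell-like cells comprise 2 control clusters. Scrublet called 208 doublets (2.11%) in Ikk2CA and 0 in control, so none were removed and the highest scores were left out as an alternative. Other alternatives were edgeR 4.0.16 TMM and DESeq2 1.42.0 size factors (used as scalings only), other CPM limits, all barcodes, equal weight per cell, thinning, cells with no Xist UMI, class weighting and lineage clusters left out.

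Genes were named by a fixed rule: among genes with 20 CPM or more, leaving out mitochondrial, ribosomal protein, antigen receptor, sex-linked and unnamed (Gm or Rik) genes, the 20 highest and 20 lowest ratios, up to 6 members of each of 42 lists by size of log2 ratio and others of the same role, and the 15 highest and 15 lowest by their smallest class ratio. Further list members, and the genes given below 10 CPM, were chosen after their values were seen. The comparison and the lists were chosen with earlier results of these data known, so list counts and medians are descriptions. Ribosomal protein genes took 34.0% of UMIs in Ikk2CA and 32.4% in control.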

Additional observations from a re-analysis of the deposited data

How the results depend on the processing

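Of the 179 higher and 282 lower genes, the higher count was 77 with a 50 CPM limit and 445 with 1 CPM. The lower count was 123 with TMM, 115 with DESeq2 factors, 127 relative to the median gene, 52 and 921 with limits of 50 and 1 CPM, 119 with class weighting and 187 with lineage clusters left out. Of list medians at least 0.5 from 0 and gene ratios past 2-fold, those that changed sign were the median of the NF-κB inhibitors, -0.25 with 50 CPM (main 0.68), the globin median, -0.33 without the highest doublet scores (main 4.71), Jchain and Blnk, -0.19 and -0.11 with class weighting (main 2.14 and 1.66), and Hbb-bt, -0.16 with lineage clusters left out and -0.82 without the highest doublet scores (main 1.52). The cause was not tested, beyond the 3 inhibitors that 50 CPM leaves. Share ratios moved for granulocyte-monocyte progenitor-like cells, 1.94 at resolution 0.5 and 3.92 at 2 (main 1.59), megakaryocyte progenitor-like cells, 1.43, 2.67 and, assigned from control, 1.59 (main 12.0), erythroid progenitor-like cells, 0.750 at 0.5 and 0.770 assigned from control (main 1.18), and neutrophil-like cells, 0 without the highest doublet scores (main 0.877). No cluster was named plasmacytoid dendritic-like at the other resolutions, where unnamed clusters with Siglech and Ly6d among their leading genes held 403 Ikk2CA and 39 control cells (0.5) and 378 Ikk2CA and 39 control cells (2), or in control. Smaller medians and ratios near 0 also changed sign. Depth limits genes near 10 CPM, and no interval covers the difference between pools. No paired analysis was possible because each group is 1 pooled library and no result comes from a test.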

Other observations

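A pair of genes outside the naming rule was chosen after its values were seen. The rule's rankings over all genes leave out Gm-numbered genes and genes under 20 CPM in both libraries. The pair had larger library ratios than any gene of the NF-κB lists, with ratios above 1 in every cell class. Gm10260, an annotated protein-coding gene without a given name, had 99.9 CPM in Ikk2CA and 0.293 CPM in control cells, with class log2 ratios from 5.86 to 10.2 and a UMI in 36.4% of thinned Ikk2CA and 0.194% of thinned control cells (67.0% and 0.372% before thinning). The double mutant had 15.7 CPM of Gm10260 and the Jak2V617F library 0.613 CPM. Dscam, a cell adhesion gene best known from neurons, had 18.6 CPM in Ikk2CA and 0.391 CPM in control cells, and was found in 9.32% of thinned Ikk2CA and 0.166% of thinned control cells. Its level was 11.5 CPM in the double mutant and 0.569 CPM in Jak2V617F, so Dscam was high in both libraries that carry the Ikk2-CA allele and low in both that do not. Each value rests on 1 pooled library.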
